A study of Homo sapiens with 4 samples.

Results

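The nuclear genes for the subunits of the respiratory chain were examined in nascent RNA of HCT116 cells with and without acute depletion of KAP1 (gene TRIM28), a transcriptional regulator. The genes were taken from the count table by symbol, as the numbered NDUFA, NDUFB, NDUFC, NDUFS and NDUFV genes of complex I, SDHA to SDHD of complex II, the UQCR genes of complex III, the numbered COX4 to COX8 genes of complex IV and the ATP5 genes of complex V, and none lies on the mitochondrial chromosome. The rule gave 89 of the 19901 genes in the table, with 39 in complex I, 4 in complex II, 9 in complex III, 17 in complex IV and 20 in complex V. The rule itself uses symbols and no measured value.

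The respiratory chain sits in the inner mitochondrial membrane. Complex I takes electrons from NADH and complex II from succinate, complex III passes them from ubiquinol to cytochrome c, complex IV hands them to oxygen, and complex V, the ATP synthase, uses the resulting proton gradient to make ATP. Complexes I, III, IV and V combine subunits made from mitochondrial DNA with subunits made from nuclear genes, whereas complex II is wholly nuclear. The promoters of many of the nuclear genes are known to be bound by NRF1, by ETS family factors such as GABP, and by YY1.

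HCT116 is a colon cancer cell line. All 4 samples came from clone D5 of its KAP1 dTAG derivative, in which KAP1 carries an FKBP12-derived degron tag and an HA tag at its C-terminus, so the control group carries the tags as well and the line is a single clone. Cells received either the vehicle DMSO or the degrader dTAG for 8 h, with 2 replicates each, and were then labeled with 500 μM 4-thiouridine for 10 min. In TT-Seq, RNA that took up this nucleoside is purified, so the reads come from RNA made during the pulse and cover introns as well as exons. The deposited values were raw read counts over the whole gene. They are given below as CPM, counts per 1000000 counts of the library after TMM scaling of its size, and a log2 fold change is always dTAG minus DMSO.

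The 4 libraries held 93105627 to 102314741 gene counts, of which the 89 subunit genes took 0.365% to 0.410%. A count of 50 or more in each of the 4 libraries was reached by 12612 genes, which were tested, and 70 of these were subunit genes. TRIM28, whose protein is the target of dTAG, had 61.7 and 69.8 CPM in the DMSO libraries and 53.5 and 47.9 CPM in the dTAG libraries (log2 fold change -0.37, adjusted p = 0.019 by the quasi-likelihood test of edgeR, adjusted after Benjamini and Hochberg over the tested genes), which does not measure its protein. All 5 epithelial marker genes examined were tested, while of 9 markers of blood, endothelium, fibroblasts, liver, glia and muscle, 2 (VWF and COL1A1) reached the count minimum and none exceeded 538 counts.

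The question of the comparison was whether nascent RNA of these genes differed after 8 h of dTAG. Of the 70 tested subunit genes, 0 were called higher and 2 were called lower at an adjusted p under 0.05, ATP5F1D of complex V and COX6B1 of complex IV. Over all tested genes, 895 were called, or 7.10%, with 3.44% higher and 3.66% lower. The count of 2 among 70 subunit genes was not above this background. At an unadjusted p under 0.05, 15 subunit genes were lower and 1 was higher, beside 14.3% lower and 12.3% higher of all tested genes.

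ATP5F1D encodes the delta subunit of the F1 part of the ATP synthase, in the central stalk. It had 49.2 and 54.0 CPM in the DMSO libraries and 43.0 and 38.3 CPM in the dTAG libraries. Both dTAG values lay below both DMSO values. The log2 fold change was -0.35 with an SE of 0.095 (edgeR adjusted p = 0.032). The gene, ENSG00000099624, spans 3.08 kb on the plus strand of chr19:1241746-1244826 in hg38, and 63.0% of its bases are G or C.

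COX6B1 encodes a small subunit of cytochrome c oxidase on the side of the intermembrane space. Its CPM were 51.5 and 49.8 in DMSO and 42.3 and 39.5 in dTAG, and the groups did not overlap. The log2 fold change was -0.31 with an SE of 0.090 (edgeR adjusted p = 0.045). It lies on the plus strand of chr19:35648223-35658861 and spans 10.6 kb, with a GC content of 49.1%. Neither call held without dTAG replicate 1 (edgeR adjusted p = 0.23 for ATP5F1D and 0.37 for COX6B1) or without dTAG replicate 2 (0.93 for both genes). Over 16 other settings ATP5F1D was called in 8 and COX6B1 in 9, with adjusted p from 7.5e-06 to 0.93 and from 0.0014 to 0.96, respectively.

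**Figure D1:**
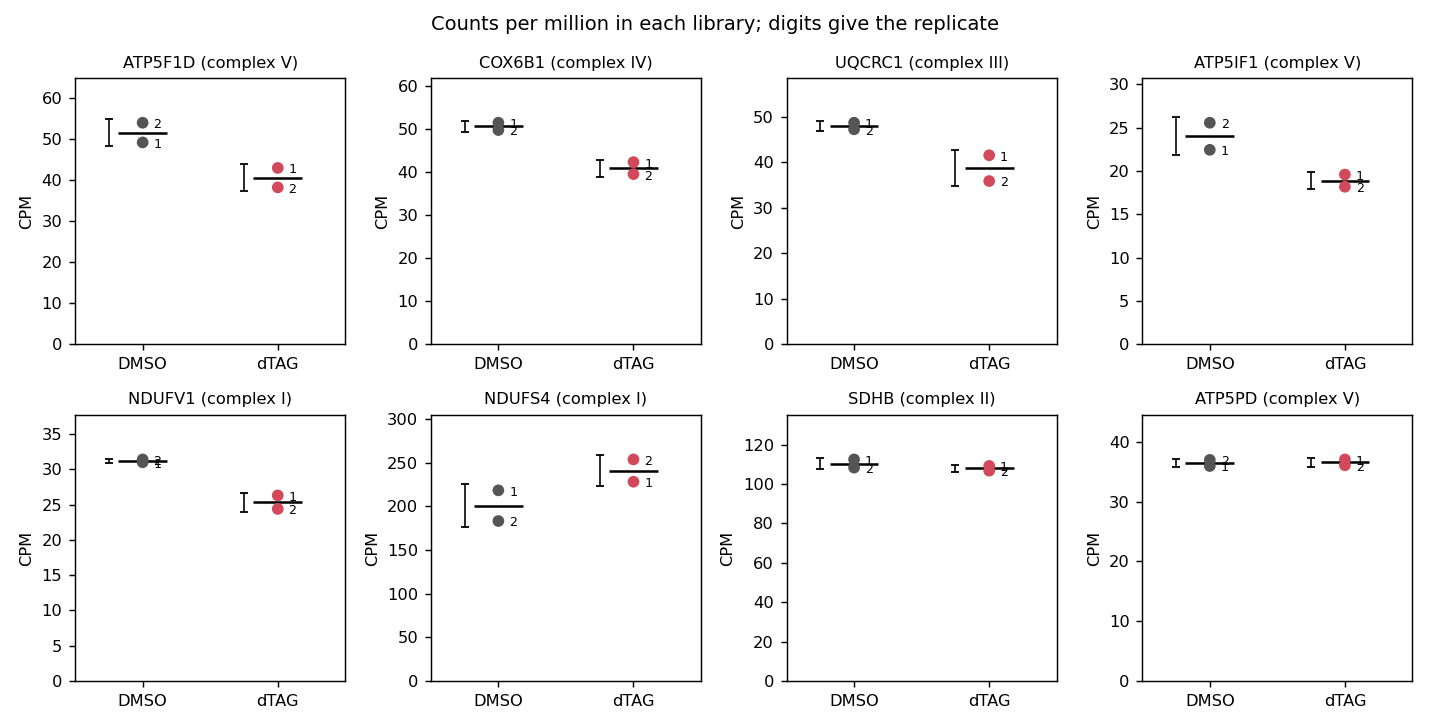
CPM of 8 subunit genes in each library (points, with the replicate number beside them), with the mean of each group (bar) and the SD over its 2 libraries (whiskers), on axes that start at 0. In ATP5F1D, COX6B1, UQCRC1, ATP5IF1 and NDUFV1 both dTAG points lie below both DMSO points, in NDUFS4 both lie above, and in SDHB and ATP5PD the groups overlap.

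UQCRC1, ATP5IF1 and NDUFV1 came next in the order of adjusted p and missed the threshold. UQCRC1, a core protein of complex III, had 48.6 and 47.2 CPM in DMSO and 41.5 and 35.8 CPM in dTAG (log2 fold change -0.31 ± 0.096 (SE), edgeR adjusted p = 0.053). ATP5IF1, the inhibitor that blocks ATP hydrolysis by the synthase, had 22.4 and 25.6 CPM in DMSO and 19.6 and 18.2 CPM in dTAG (-0.35 ± 0.11, adjusted p = 0.064). NDUFV1, the complex I subunit that binds FMN and NADH, had 31.0 and 31.4 CPM in DMSO and 26.3 and 24.4 CPM in dTAG (-0.30 ± 0.10, adjusted p = 0.072).

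Small differences in one direction were more common than calls. Of the 70 tested subunit genes, 54 are under 30 kb, a length at which 71.8% of all tested genes had a negative log2 fold change. Negative values were found in 53 of the 70, which is 75.7% against 52.3% of all tested genes. This tally was 0 of 70 with ERCC spike-in totals as library sizes, where the median over all tested genes was 0.63, and 32 of 70 with each library's trend on gene length removed. In 37 both dTAG libraries lay below both DMSO libraries, a pattern seen in 30.7% of all tested genes and in 44.7% of those under 30 kb. In 9 both lay above, against 28.1% of all tested genes, and in 24 the groups overlapped. The median log2 fold change was -0.09 for the subunit genes and -0.015 for all tested genes. Taken against the DMSO mean of each gene, the median of the subunit genes was 0.0062 and -0.0062 in the DMSO libraries, -0.058 in dTAG replicate 1 and -0.13 in dTAG replicate 2. Gene by gene, the replicate ratio was the larger one in DMSO for 43 subunit genes and in dTAG for 27. In bulk RNA, less transcription per cell and fewer cells that transcribe a gene cannot be told apart.

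**Figure D2:**
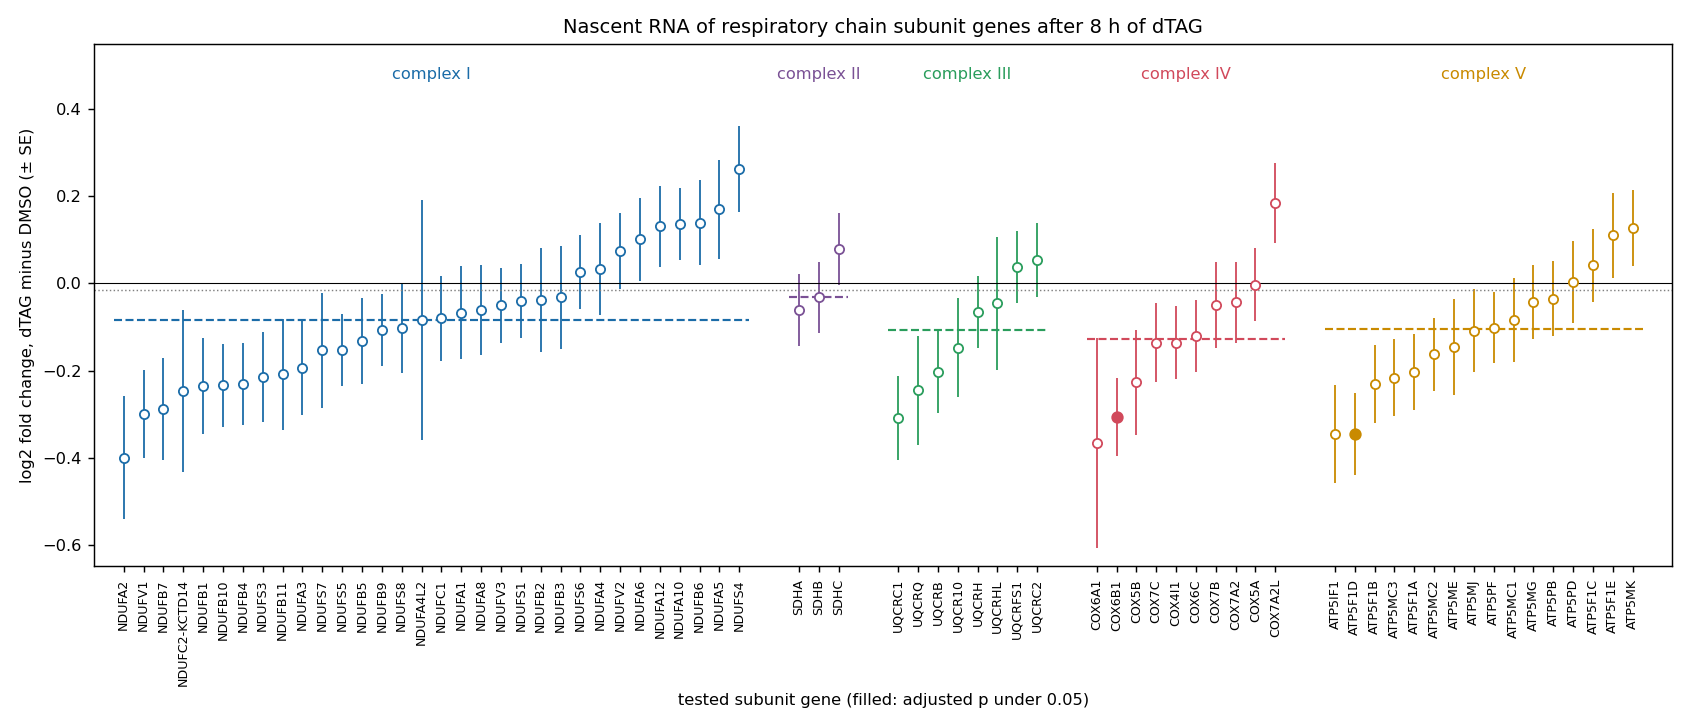
Log2 fold change (dTAG minus DMSO) with its SE for the tested subunit genes that are reported here, ordered within each complex, with the median of the complex dashed and that of all tested genes dotted. Filled points are the 2 called genes, and the values run from -0.40 for NDUFA2 to 0.26 for NDUFS4.

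Complex I had 33 tested genes and no call. Its median log2 fold change was -0.08, with 24 genes negative and 9 positive, beside 52.3% negative among all tested genes and 71.8% among those under 30 kb. The dTAG libraries lay below the DMSO libraries in 16 genes and above them in 6, beside 30.7% and 28.1% of all tested genes. NDUFA2, an accessory subunit, had the lowest value of all subunit genes, with 12.3 and 14.5 CPM in DMSO and 11.2 and 9.11 CPM in dTAG (-0.40 ± 0.14, edgeR adjusted p = 0.082). NDUFS4, an accessory subunit of the arm that takes up electrons, had the highest, with 218 and 183 CPM in DMSO and 228 and 254 CPM in dTAG (0.26 ± 0.098, adjusted p = 0.097). Both pairs of values were separated between the groups, and neither gene passed the test. The 7 tested core subunits, which carry the redox centers and are conserved from bacteria, had a median of -0.15 with 6 negative. The other 26 genes, counted as accessory, had a median of -0.07 with 18 negative, and they include NDUFA4, NDUFA4L2 and the read-through gene NDUFC2-KCTD14. The median GC content was 49.7% for the core subunits and 44.9% for the others, and the core set was added after its values were seen.

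Complex II, the succinate dehydrogenase, had 3 tested genes with a median of -0.03. SDHA, the flavoprotein, had 82.5 and 86.0 CPM in DMSO and 81.8 and 79.7 CPM in dTAG (log2 fold change -0.06). SDHB, the iron-sulfur subunit, had 112 and 108 CPM in DMSO and 109 and 107 CPM in dTAG (-0.03), and its groups overlapped. SDHC, a membrane anchor, had 99.2 and 94.4 CPM in DMSO and 102 and 102 CPM in dTAG (0.08). The SE was 0.082 in each of the 3 genes, so differences of this size were within the error. SDHD, the other anchor, did not reach the count minimum.

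Complex III had 8 tested genes, 6 of them negative (beside 52.3% of all tested genes and 71.8% of those under 30 kb), and a median of -0.11. UQCRC1 was the lowest, and the other core protein, UQCRC2, was the highest, with 125 and 114 CPM in DMSO and 122 and 126 CPM in dTAG (0.05 ± 0.085). The Rieske protein UQCRFS1, which carries electrons from ubiquinol to cytochrome c1, had a log2 fold change of 0.04. In all 4 tested small subunits (UQCRB, UQCRQ, UQCRH and UQCR10) the dTAG libraries lay below the DMSO libraries. The same was seen in 30.7% of all tested genes and in 44.7% of those under 30 kb, and all 4 are under 30 kb. Their values ran from -0.24 to -0.07 with no call, and they were added after their values were seen. UQCRHL, a copy of UQCRH at another locus, had a log2 fold change of -0.05 against -0.07 for UQCRH, and since the transcripts are nearly identical, reads may have been split between them.

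Complex IV had 10 tested genes, 9 of them negative (beside 52.3% of all tested genes and 71.8% of those under 30 kb), with a median of -0.13 and the call of COX6B1. Its lowest value, -0.37 for COX6A1, had an SE of 0.24 and rested on 134 to 278 counts per library, and its groups overlapped. The highest was COX7A2L, a factor in supercomplex assembly that carries a COX7 symbol, with 38.8 and 37.5 CPM in DMSO and 43.2 and 43.5 CPM in dTAG (0.18 ± 0.091, edgeR adjusted p = 0.20). COX4I1, the regulatory subunit of the complex, had 105 and 104 CPM in DMSO and 99.7 and 90.8 CPM in dTAG (-0.14 ± 0.084, adjusted p = 0.30). COX7A2 (-0.04) and COX7B (-0.05) overlapped between the groups. NDUFA4, named for complex I but known as a complex IV subunit, had a value of 0.03, and with it the complex IV median was -0.12.

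Complex V had 16 tested genes, 12 of them negative (beside 52.3% of all tested genes and 71.8% of those under 30 kb), with a median of -0.11 and the call of ATP5F1D. In the F1 part, whose head holds the catalytic sites, ATP5F1B (beta) had 189 and 170 CPM in DMSO and 158 and 148 CPM in dTAG (-0.23 ± 0.089, edgeR adjusted p = 0.11), and ATP5F1A (alpha) had 171 and 155 CPM in DMSO and 145 and 138 CPM in dTAG (-0.20 ± 0.087, adjusted p = 0.14). The gamma and epsilon subunits of the central stalk, ATP5F1C (0.04) and ATP5F1E (0.11) lay on the other side of 0, with overlapping groups. The 5 F1 genes, ATP5F1D included, spanned -0.35 to 0.11.

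The c subunit, which forms the rotor ring in the membrane, is made from 3 genes that encode the same mature protein. ATP5MC1 had 34.8 and 35.2 CPM in DMSO and 34.3 and 31.8 CPM in dTAG (-0.08), ATP5MC2 had 103 and 110 CPM in DMSO and 98.5 and 91.9 CPM in dTAG (-0.16), and ATP5MC3 had 70.0 and 62.2 CPM in DMSO and 57.2 and 56.6 CPM in dTAG (-0.22). In all 3 both dTAG libraries lay below both DMSO libraries, beside 30.7% of all tested genes, and none was called (edgeR adjusted p = 0.60, 0.22 and 0.13). The 3 tested genes of the peripheral stalk had a median of -0.04 and the 4 small membrane subunits one of -0.08. ATP5MK, a small subunit of the dimer interface, had the highest value of complex V, with 56.1 and 52.2 CPM in DMSO and 60.3 and 58.0 CPM in dTAG (0.13 ± 0.087, adjusted p = 0.35).

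The fold changes of the subunit genes ran along with the base composition and length of the genes, as those of all genes did. Across the 70 subunit genes, Spearman's rho of the log2 fold change was -0.54 with GC content and 0.46 with gene length, and across all 12612 tested genes it was -0.56 and 0.42. These are correlations across genes that share the same 4 libraries, given as a description. The same property separated replicates: the log2 ratio of DMSO replicate 2 to replicate 1 had a rho of 0.57 with GC content across the subunit genes and 0.75 across all tested genes, and the ratio of the dTAG replicates one of -0.44 and -0.43.

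All 16 tested subunit genes with a GC content of at least 50% had negative values, with a median of -0.22, beside a median of -0.19 and 83.8% negative among all tested genes of that composition. The 54 subunit genes below 50% GC had a median of -0.05, beside 0.06 for all such genes. By length, the 54 genes under 30 kb had a median of -0.13, beside -0.12 for all such genes, and the 16 longer genes one of -0.04, beside 0.06. Subunit genes are short, with a median of 12.0 kb against 36.1 kb for all tested genes, while their median GC content, 44.7%, was close to the 44.9% of all tested genes. Within bins of like length, 32 of 70 subunit genes fell below the median of the bin, and within bins of like GC content 52 of 70 did. The part of composition and length in the shift was not tested.

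**Figure D3:**
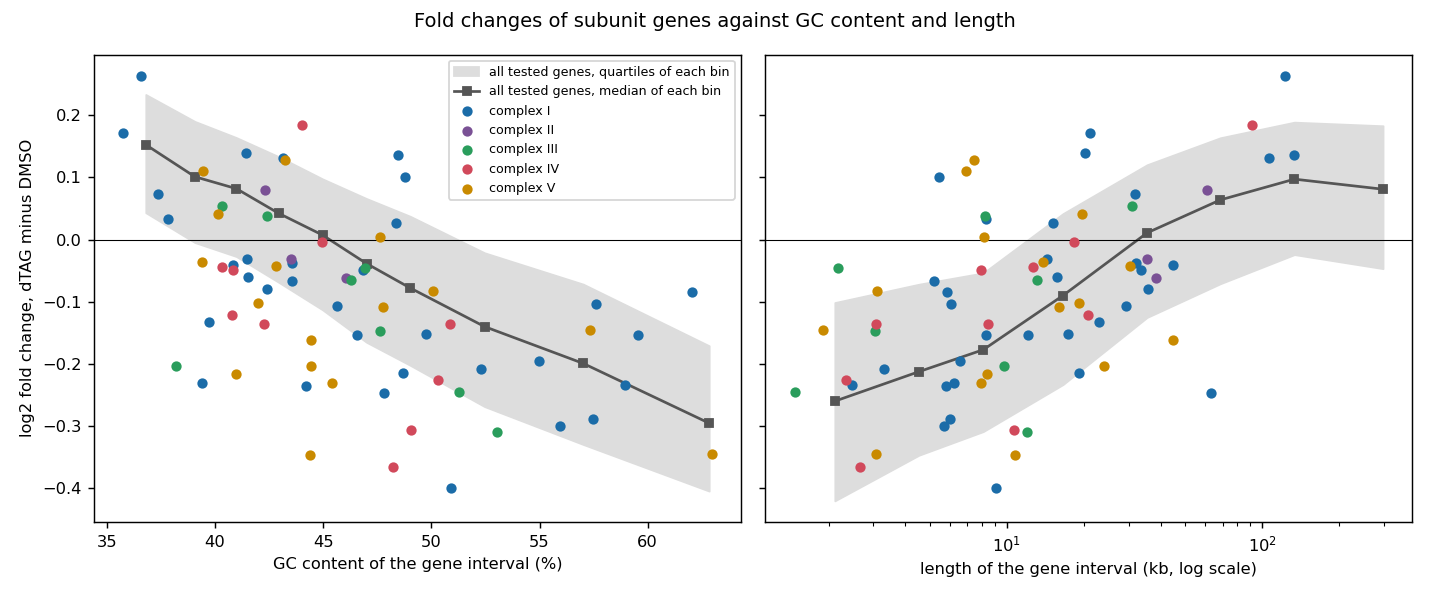
Log2 fold change of the 70 tested subunit genes (points, by complex) against the GC content (left) and the length (right, log scale) of the gene, over the median (line) and quartiles (grey) of all tested genes in bins. With length, 51 of 70 subunit genes lie between the quartiles of their bin, and with GC content 39 of 70.

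With each library's trend on length removed, the median of the subunit genes was 0.02, no subunit gene was called lower and 2 (ATP5MK and NDUFA6) were called higher, beside 3.31% lower and 5.03% higher of all tested genes. With trends on GC content and then on length removed, the median was -0.05 and 11 were called lower, COX6B1 (adjusted p = 0.046) but not ATP5F1D (adjusted p = 0.81) among them, and 2 (NDUFA10 and NDUFA6) higher. In that setting 7.45% of all tested genes were called lower and 10.6% higher. A count of calls among the subunit genes thus ranged from 0 to 15 lower and from 0 to 5 higher over the settings tried, and both upper ends came without DMSO replicate 1, where 21.4% of all tested genes were called lower and 22.2% higher.

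Levels were compared per kilobase of gene, as mean CPM per kb in the 2 DMSO libraries. The tested subunit genes had a median of 4.14 CPM per kb against 1.06 for all tested genes, and their median percentile among all tested genes was 88.0. Under 30 kb the medians were 4.67 for subunit genes and 1.75 for all tested genes, and at 30 kb or longer they were 1.61 and 0.74. The median level was 6.94 in complex III, 5.21 in complex V, 4.69 in complex IV, 2.19 in complex II and 1.88 in complex I. The median gene lengths, in the same order, were 9.0, 9.6, 9.5, 38.5 and 15.2 kb, and the part of length in the order was not tested. From the lowest to the highest gene, levels spanned 254-fold in complex I (111-fold without its genes that lie partly under genes of the same strand), 36.0-fold in complex IV, 11.8-fold in complex V, 3.62-fold in complex III and 1.96-fold in complex II. The 254-fold span ends at NDUFC2-KCTD14, a read-through gene. The 111-fold span ends at NDUFA4L2, a relative of NDUFA4, which is itself known as a complex IV subunit. The next lowest gene of complex I was NDUFA12 at 0.41 CPM per kb.

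Per kb of the whole gene, ATP5F1B was the highest of all at 22.7 CPM per kb (23.9 and 21.6 in the libraries), and ATP5MG, a small membrane subunit, was the lowest of complex V at 1.93. In complex I, NDUFB10, an accessory subunit, was the highest at 16.7 CPM per kb (16.3 and 17.0), and NDUFC2-KCTD14, a read-through gene that shares its bases with NDUFC2, the lowest at 0.066 (0.19 per kb of its bases free of other genes of its strand). UQCRQ, the highest of complex III, stood at 11.4 and UQCRHL, the lowest, at 3.15, although reads may have been split between UQCRHL and UQCRH. The next lowest of complex III was UQCRC2 at 3.86. COX7C stood at 15.0 in complex IV and COX7A2L at 0.42. In complex II the levels ran from 1.58 for SDHC to 3.11 for SDHB. Introns count in the length, so a long gene with few reads per base ranks low although its total may be high, as in NDUFS4 with 1.64 CPM per kb over 123 kb.

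**Figure D4:**
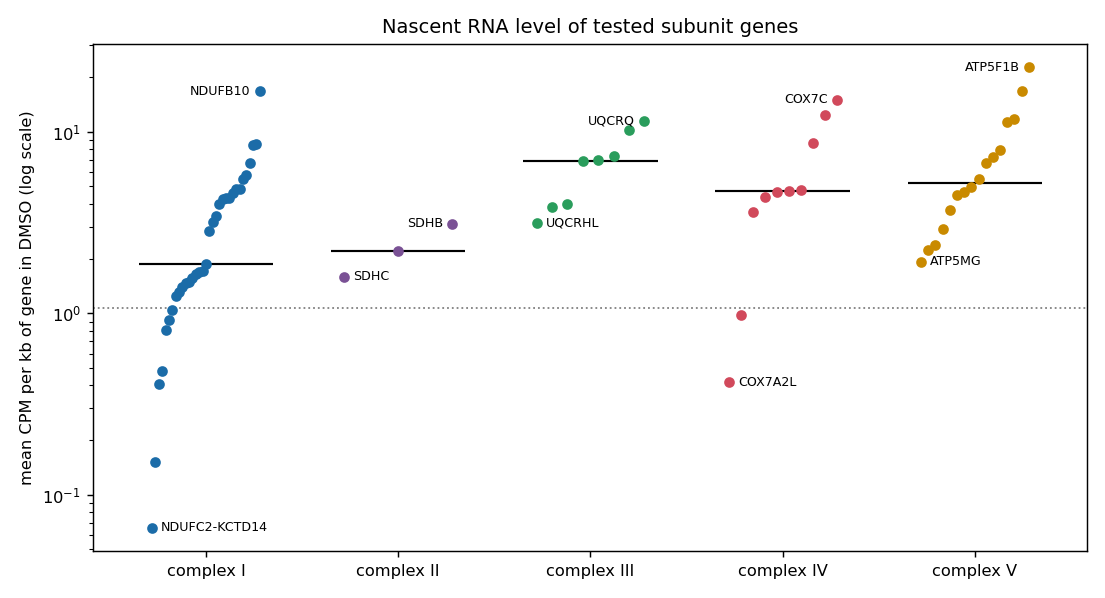
Mean CPM per kb of gene in the 2 DMSO libraries (log scale) for the 70 tested subunit genes, with the median of each complex (bar) and of all tested genes (dotted, 1.06). The named genes are the highest and lowest of each complex, and the medians run from 1.88 in complex I to 6.94 in complex III.

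Several subunits exist as pairs of genes used in different tissues, and in the pairs that could be read 1 gene carried nearly all counts. COX4I1 stood at 12.4 CPM per kb and COX4I2, the form known from lung, at 0.011, with 4 to 24 counts per library. COX7A2 stood at 3.59 and COX7A1, the form of heart and skeletal muscle, had 0 counts in all 4 libraries, which allows up to 0.0300 to 0.0332 CPM if 3 counts are taken as the limit of counting error. COX6B1 stood at 4.76 and COX6B2, known from testis, at 0.079, or 0.15 per kb of its bases free of other genes of its strand. COX7B stood at 4.39, with 1 to 12 counts per library for COX7B2. COX6A2, the muscle form, had 0 counts in 3 libraries and 3 in dTAG replicate 2. NDUFA4 stood at 2.85 and its relative NDUFA4L2, known as a hypoxia-induced gene, at 0.15 (log2 fold change -0.08, 62 to 96 counts per library).

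Of the 19 subunit genes below the count minimum, 5 were mostly free of other genes, namely the tissue forms COX4I2, COX6A2, COX6B2, COX7A1 and COX7B2. The other 14 lay to at least 95% under another annotated gene of the same strand. They were NDUFA7, NDUFA9, NDUFA11, NDUFA13, NDUFB8, NDUFC2, SDHD, UQCR11, COX8A, COX8C, ATP5MF, ATP5MF-PTCD1, ATP5MGL and ATP5PO. None of them exceeded 43 counts in a library, and 6 had 0 in all 4. Several are constitutive subunits: ATP5PO (oligomycin sensitivity protein of the peripheral stalk) had 0 counts in every library, NDUFA9 had at most 1 and SDHD 7 to 25. The gene over ATP5PO in the table, ENSG00000249209, covers 100% of it on its strand, and ENSG00000255292 covers 99.6% of SDHD. COX8A, the common form of its subunit, had 0 to 4 counts under ENSG00000256100, so it could not be set against COX8C.

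The same held across the table. Of 979 genes covered to at least 95% by a gene of the same strand, the median of the mean count was 0 and 7.87% reached the count minimum, against 62.4% of the 13510 genes that overlap no other. Among 603 genes covered as far by genes of the opposite strand alone, 42.1% reached it, and the median of the mean count was 14.5, against 868 for the genes without overlap. All 21 subunit genes overlapped by opposite-strand genes only were tested, and ATP5PD, of the peripheral stalk, held 3257 to 3713 counts although it lies wholly under KCTD2 on the other strand. Among these genes, those under a gene of the same strand had the lowest counts, and the low values of the 14 covered subunit genes are given without a reading of their transcription. COX6A1, covered to 95.9% by ENSG00000111780, passed the minimum, and its value of 0.98 CPM per kb is per kb of the whole gene. Divided by the 4.07% of its bases left free, the same counts gave 24.1 CPM per kb. Where its reads lay was not examined, so its level was not ranked on that figure.

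**Figure D5:**
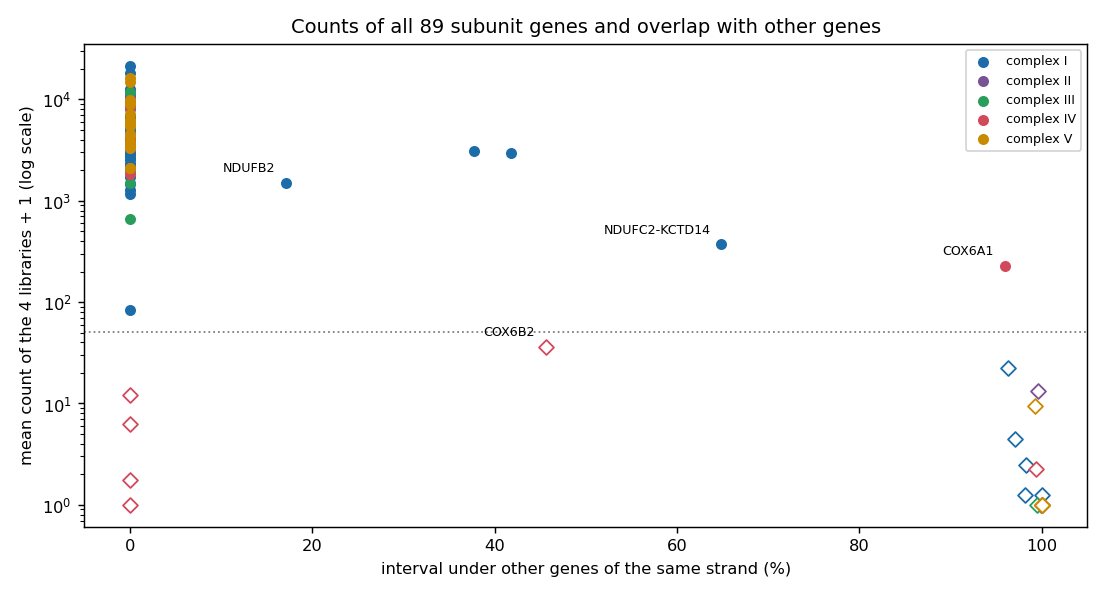
Mean count of the 4 libraries plus 1 (log scale) for all 89 subunit genes against the share of the gene under other genes of the same strand, with tested genes filled, the others as open diamonds and the minimum of 50 counts dotted. Of the 15 genes covered to at least 95%, COX6A1 alone passed the minimum.

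The promoters of 4 of these genes are shown because they carry the short motifs known from nuclear respiratory genes: COX6B1 as a called gene, NDUFS4 as the gene with the highest fold change, SDHB for complex II and ATP5PF, a peripheral stalk gene, as the subunit gene whose promoter held all 3 motifs. Sequences are from RefSeq (GRCh38.p14), from 250 bases before to 30 bases after the annotated start, 5′ to 3′ on the strand of the gene. They lie at chr19:35648073-35648352 (plus strand), chr5:53560389-53560668 (plus strand), chr1:17054003-17054282 (minus strand) and chr21:25735025-25735304 (minus strand), respectively. Capitals mark a match on either strand to GCGCATGCG (NRF1), CCGGAAG (ETS factors) or AAGATGGCG (YY1).
COX6B1: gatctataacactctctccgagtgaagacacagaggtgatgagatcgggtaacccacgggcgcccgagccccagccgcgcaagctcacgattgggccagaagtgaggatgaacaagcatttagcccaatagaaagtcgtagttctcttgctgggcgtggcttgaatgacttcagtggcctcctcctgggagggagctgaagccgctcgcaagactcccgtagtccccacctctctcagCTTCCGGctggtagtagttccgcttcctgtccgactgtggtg
NDUFS4: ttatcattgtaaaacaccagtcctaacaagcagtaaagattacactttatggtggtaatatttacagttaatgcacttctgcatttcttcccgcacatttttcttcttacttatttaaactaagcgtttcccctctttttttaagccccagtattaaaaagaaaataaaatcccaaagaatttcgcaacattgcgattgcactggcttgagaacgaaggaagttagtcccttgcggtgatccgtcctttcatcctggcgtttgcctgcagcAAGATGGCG
ATP5PF: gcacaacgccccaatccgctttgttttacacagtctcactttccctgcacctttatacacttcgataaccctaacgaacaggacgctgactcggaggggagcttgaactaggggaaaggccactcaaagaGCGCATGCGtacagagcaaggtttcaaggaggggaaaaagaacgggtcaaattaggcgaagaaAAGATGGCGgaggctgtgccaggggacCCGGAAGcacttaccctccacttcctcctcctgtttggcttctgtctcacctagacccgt
SDHB: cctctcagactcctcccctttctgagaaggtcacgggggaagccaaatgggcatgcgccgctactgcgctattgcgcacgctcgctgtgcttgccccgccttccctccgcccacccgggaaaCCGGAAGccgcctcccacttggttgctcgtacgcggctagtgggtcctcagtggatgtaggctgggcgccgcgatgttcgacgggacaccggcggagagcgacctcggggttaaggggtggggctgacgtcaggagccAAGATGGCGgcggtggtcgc

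The match in COX6B1 is the ETS motif on the opposite strand, 12 bases before the start. In NDUFS4 the YY1 motif begins at base 22 after the start, and in SDHB it begins at base 11, with an ETS motif 128 bases before the start. In ATP5PF the NRF1, YY1 and ETS motifs begin 120, 57 and 30 bases before the start. ATP5PF is overlapped on the opposite strand by JAM2 and by GABPA, which encodes the DNA-binding subunit of GABP, and its own CPM were 94.8 and 94.7 in DMSO and 89.2 and 87.4 in dTAG (log2 fold change -0.10, edgeR adjusted p = 0.43).

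In the set of RefSeq promoters used here, 70 of the 89 subunit genes were matched by symbol, taking the first start listed for each. Among those not matched were ATP5F1B, ATP5F1D, ATP5MC3, COX4I2, COX7A1, NDUFA4, NDUFA4L2, SDHC, UQCRB and UQCRHL. In windows of 300 bases on both strands, the NRF1 motif was found in 14.3% of the matched subunit genes, in 3.66% of tested genes and in 2.10% of all 27305 promoters. The ETS motif was found in 28.6%, 18.9% and 10.7%, and the YY1 motif in 11.4%, 3.97% and 1.85%, respectively. At least 1 of the 3 was present in 31 subunit promoters, or 44.3%, and in 24.5% of the promoters of tested genes. Of the 57 tested subunit genes with a matched promoter, 9 held the NRF1 motif, 16 the ETS motif and 6 the YY1 motif. Those with and without a motif had median log2 fold changes of -0.15 and -0.06 for NRF1, -0.12 and -0.06 for ETS and -0.07 and -0.07 for YY1. A match is a run of letters and not a measured binding site.

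The other genes of the pathway were counted by list, each read against the 3.44% called higher and 3.66% called lower over all tested genes. A gene that rose or fell is one called in the main fit, and these calls are given for that fit only. With ERCC totals as library sizes none of them held, since 0 genes were called in the whole table. Of 47 tested assembly factors, 2 rose and 0 fell. The complex I assembly factor NDUFAF2 had 151 and 127 CPM in DMSO and 182 and 194 CPM in dTAG (log2 fold change 0.44, edgeR adjusted p = 0.0073). CMC1, a chaperone of complex IV assembly, had 75.6 and 62.5 CPM in DMSO and 85.8 and 88.0 CPM in dTAG (0.33, adjusted p = 0.035). Both genes are long and poor in GC, at 208 and 83.6 kb and 36.3% and 35.9%.

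Of 6 electron carriers and subunits that the symbol rule does not take in, 1 fell. This was CYC1, the cytochrome c1 of complex III, with 45.4 and 43.7 CPM in DMSO and 36.9 and 31.5 CPM in dTAG (log2 fold change -0.38, edgeR adjusted p = 0.024), a gene of 2.50 kb and 63.3% GC. Among 13 tested genes of coenzyme Q synthesis, COQ2, the enzyme that joins the ring to its side chain, rose, with 34.9 and 37.2 CPM in DMSO and 45.8 and 47.7 CPM in dTAG (0.37, adjusted p = 0.019). COQ2 spans 23.4 kb with a GC content of 39.4%. None of the 13 enzymes of the citric acid cycle and none of 26 tested protein import genes passed the test. At an unadjusted p under 0.05, 0 of these 13 and 4 of these 26 genes did, beside 26.6% of all tested genes.

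Of 13 tested regulators of nuclear respiratory genes, 1 rose and 0 fell. It was GABPB1, the activating subunit of GABP, with 81.5 and 75.2 CPM in DMSO and 94.7 and 98.6 CPM in dTAG (log2 fold change 0.30, edgeR adjusted p = 0.034). The median of the list was 0.12, and both dTAG libraries lay above both DMSO libraries in 10 of the 13, beside 28.1% of all tested genes. The list has a median length of 37.9 kb, and the same pattern was seen in 2740 of the 7026 tested genes of 30 kb or longer. NRF1 (0.13, adjusted p = 0.36), GABPA (0.13, adjusted p = 0.33) and YY1 (-0.11, adjusted p = 0.47) did not pass the test. PPARGC1A, the coactivator that drives mitochondrial biogenesis in muscle and brown fat, had at most 4 counts in a library and was not tested.

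Among the 13 protein genes of the mitochondrial chromosome, which are transcribed by another polymerase, MT-ND6 rose, with 182 and 155 CPM in DMSO and 222 and 221 CPM in dTAG (log2 fold change 0.39, edgeR adjusted p = 0.016), and the median was 0.0060. Among 70 tested mitochondrial ribosomal protein genes, MRPL43 fell, with 29.2 and 33.2 CPM in DMSO and 26.2 and 22.2 CPM in dTAG (-0.37, adjusted p = 0.049), and the median was -0.03. MT-ND6 spans 0.525 kb with a GC content of 42.7%, and MRPL43 spans 18.1 kb with 53.2%.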

How the data were processed

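TT-Seq libraries of HCT116 KAP1 dTAG clone D5 were compared between DMSO and dTAG, with 2 replicates each, called biological replicates in the methods. Reads were trimmed with Trim Galore 0.6.4 and aligned by STAR (hg38), and featureCounts of Subread 1.6.3 assigned them to whole protein-coding genes and to ERCC spike-in RNAs, so the deposited values are raw counts without normalization. Strand settings are not given in the sources used here.

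Counts were fitted with edgeR 4.0.16 in R 4.3.3 (TMM, quasi-likelihood F test, two-sided, 1 term for dTAG, Benjamini-Hochberg adjustment over the 12612 genes with a minimum of 50 in each library). Standard errors are the log2 fold change over the square root of F. The methods name RUVSeq but neither its function nor its number of factors, so spike-in settings were alternatives, beside DESeq2 1.42.0, other normalization, filters, a replicate block, each library left out, and lowess trends (span 0.3). The TMM quasi-likelihood, upper-quartile, likelihood ratio, DESeq2, block and combined GC and length trend fits were tried on simulated counts. The other settings were not. GC content and overlaps use hg38 and the intervals in the table, whose starts were shifted by 1 to a 1-based count. Gene symbols came from reference tables for 19802 of 19901 identifiers. Depth leaves counting error small for most genes, and 2 replicates limit precision.

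The members and lists were chosen with earlier results of these data known. Named genes are the called ones, the extremes of each complex in fold change and level, SDHA to SDHD, the c subunit genes, isoform pairs, ATP5IF1, COX7A2L, untested members and called genes of the pathway lists. NDUFV1, NDUFA6, NDUFA10, ATP5F1A, ATP5F1C, ATP5F1E, UQCRFS1, the small complex III subunits, ATP5PD, ATP5PF, NRF1, GABPA, YY1, PPARGC1A and the core complex I subunits were added after their values were seen. The value of 1 tested gene is not reported here and is left out of the plot of fold changes, while counts and medians include it.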

Additional observations from a re-analysis of the deposited data

How the results depend on the processing

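With TMM and the quasi-likelihood test, 2 subunit genes were called lower. The counts in other settings follow, each with the share of all tested genes called lower. They were 8 with upper-quartile normalization (6.89%), 6 with the likelihood ratio test (6.85%) and 1 with a minimum of 10 counts (2.94%). No filter gave 5 (4.26%), the ERCC factor 7 (5.99%) and removal of GC and length trends 11 (7.45%). The count was 0 with the length trend removed (3.31%), ERCC totals (0.00%) and glmTreat against 1.2-fold (0.349%). Genes called higher, otherwise 0, were 2 with the length trend (5.03% of all) and 2 with both trends removed (10.6%). Leaving out 1 library gave 0 to 15 lower (0.167% to 21.4% of all) and 0 to 5 higher (0.381% to 22.2%). DESeq2 called 3 lower (4.54% of all tested genes) and 0 higher (5.39%). The median over the whole table was -0.09 with upper-quartile normalization and 0.63 with ERCC totals, while the subunit median less that of all genes was -0.08 with either.

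The median log2 fold changes of all subunit genes and of complexes I to V were -0.17, -0.16, -0.11, -0.18, -0.20 and -0.18 with upper-quartile normalization and 0.55, 0.55, 0.60, 0.53, 0.51 and 0.55 with ERCC totals, where ATP5F1D (0.31) and COX6B1 (0.33) turned positive and no gene was called. The ERCC RNAs had 9551 to 25165 counts per library. With the length trend removed, the medians were 0.017 for all, 0.0040 for I, 0.056 for III, 0.045 for IV and -0.022 for V. With both trends removed they were -0.054 for all, -0.043 for III and -0.061 for V. The ERCC factor gave -0.18 for IV. Among the 44 tested members free of overlaps, IV had -0.049 and V -0.16. Without 1 library the median ranged from -0.13 to -0.060 for all, -0.14 to -0.063 for I, -0.16 to -0.065 for III and -0.15 to -0.065 for IV. The cause of these changes was not tested.

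With a replicate block, 0 subunit genes were called lower (1.41% of all tested genes) and 0 higher (1.28%), and the median was -0.10. Deviations of same-numbered libraries correlated at -0.25, and nothing in the labels pairs them. With the numbers crossed, chosen after seeing the data, 14 were lower (12.7% of all tested genes) and 1 higher (12.6%).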
